A study of Mus musculus with 16 samples.

Results

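The 38 genes described here are those by which endothelial cells of vessels and of the endocardium are usually recognised, taken by symbol from the 24972 gene rows of the left atrial (LA) table. All 38 were found and all 38 were among the 14251 genes abundant enough to test (averaging 10 or more across libraries). The question was whether angiotensin II infusion (AngII), ovariectomy (Ovx) or their combination changed the level of these genes in the atrium of old mice. The 16 libraries formed 4 groups of 4, each from whole atria of 24-month-old females of the C57BL6/J strain. The Ovx + AngII mice had lost their ovaries at 12 months of age and received AngII for 4 weeks before euthanasia, and the Ovx mice had only the surgery. The AngII mice kept their ovaries and received the same 4 weeks of AngII, and the Control mice had neither. AngII came from a pump under the skin and was not directed to the heart or its vessels. The study names as a limit that its sham surgery used no vehicle-filled pump, and cites earlier work in which this made no difference to the heart. In these libraries AngII and the carrying of a pump cannot be told apart. The sources used here do not say whether an LA sample was 1 mouse, so p-values measure only the spread between these samples.

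Endothelial cells line arteries, capillaries, veins and lymphatic vessels, and a related layer, the endocardium, lines the heart chambers. They are held together by adhesion molecules such as VE-cadherin, take survival signals through the VEGF and angiopoietin receptors, keep their identity through ETS and SOX transcription factors, and set vessel tone through nitric oxide and endothelin-1. When activated by cytokines or injury they release von Willebrand factor and place selectins and other adhesion molecules on their surface, to which leukocytes attach.

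Values are normalised counts as deposited, brought to 1 scale by dividing each library by its median-of-ratios factor, and are called levels below. Levels depend on transcript length, so they are compared between libraries and not between genes. A log2 fold change is the difference of mean log2(level + 1), and a gene passed the test at an adjusted p of at most 0.05 (limma, Benjamini-Hochberg over the 14251 genes). The deposited totals were 17598222 to 18985762 per library on the Ovx side (Ovx + AngII and Ovx) and 19592551 to 21513796 on the intact side (AngII and Control). The scale factors were 0.945 to 0.95 on the Ovx side and 1.06 to 1.07 on the intact side, a log2 shift of -0.17 of the Ovx side against the intact side that the rescaling removed. The labelled tissue was borne out by its markers: the atrial light chain Myl4 had levels of 80660 to 152200 over the 16 libraries, and none of 4 lung markers reached the abundance needed for a test, with Sftpb at 0 in every library.

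One library stood apart and is given with its values throughout. Control replicate 4 carried a control label, but the heading line of the deposited table placed it under AngII. Its mean correlation with the other libraries of its group was 0.945, against 0.963 to 0.98 for the other 15 libraries. Haemoglobin genes made up 0.55% of its total and 0.789% of the total of AngII replicate 4, against 0.0332% to 0.194% in the other 14. The 8 marker genes of lymphocytes and neutrophils summed to 938.5 in Control replicate 4 and to at most 261.5 in any other library, and the 7 macrophage markers summed to 23820, against 8012 to 15000 elsewhere. It was kept as a control, as labelled, and the numbers of members past the test are also given without it.

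The summed level of the 38 genes made up 0.429% to 0.547% of the total in Ovx + AngII libraries, 0.439% to 0.462% in Ovx, 0.475% to 0.597% in AngII and 0.42% to 0.578% in Control. The upper end in Control was replicate 4, and replicates 1, 2 and 3 were at 0.42%, 0.482% and 0.458%. The Ovx libraries resembled each other most, with a median coefficient of variation over the 38 genes of 7.27%, against 11.4% in Ovx + AngII, 12.7% in AngII and 18.1% in Control, replicate 4 included. A change in the number of endothelial cells and a change in RNA per endothelial cell cannot be told apart in such bulk tissue.

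AngII was followed by small increases in a minority of the endothelial genes and by no decrease that passed the test. Against Ovx, 6 genes rose in Ovx + AngII, namely the endothelin-1 gene Edn1, the apelin receptor gene Aplnr, Sox17, Ptprb, Cdh5 and Flt4. This is 6 of 38, where 5.96% of all tested genes passed upward and 4.28% downward. Only Edn1 and Aplnr also had a log2 fold change of at least 1, the fold limit used in the study, which 1.29% of all genes passed upward. Against Control, 2 genes rose in AngII, Pecam1 and Ptprb, where 1.55% of all genes passed upward and 1.25% downward, and neither came near the fold limit that 0.337% of all genes passed upward. Averaged over both backgrounds, AngII raised 9 of the 38 (Edn1, Sox17, Ptprb, Emcn, Cdh5, Clec14a, Pecam1, Flt4 and Flt1), where 9.16% of all genes passed upward and 8.5% downward, and Edn1 was the sole member past the fold limit that 1.07% of all genes passed upward. The Ovx + AngII count fell to 2 without Ovx replicate 3 and to 3 without Ovx replicate 2 or Ovx + AngII replicate 3, and the AngII count was 0 or 1 without any library other than Control replicate 4, which is described further on. With 1 library left out at a time, the counts over all genes also moved, from 734 to 2021 and from 100 to 1484 in these 2 comparisons. The averaged comparison uses the same libraries as both single ones and adds no independent evidence.

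Over the whole list most differences were above 0. The log2 fold change was above 0 for 32 of the 38 genes in Ovx + AngII against Ovx, with a median of 0.15 against -0.01 for all tested genes. It was above 0 for 27 of 38 in AngII against Control, with a median of 0.07 against -0.01 for all tested genes. The levels of the 4 Ovx + AngII libraries lay wholly above those of the 4 Ovx libraries for 10 members (Edn1, Sox17, Ptprb, Cdh5, Kdr, Flt1, Emcn, Fli1, Cldn5 and Selp) and wholly below for 0, where all tested genes did so in 11.8% and 10%. The 4 AngII libraries lay wholly above the 4 Control libraries for 2 members (Pecam1 and Flt4) and wholly below for 0, where all tested genes did so in 3.78% and 3.38%.

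**Figure D1:**
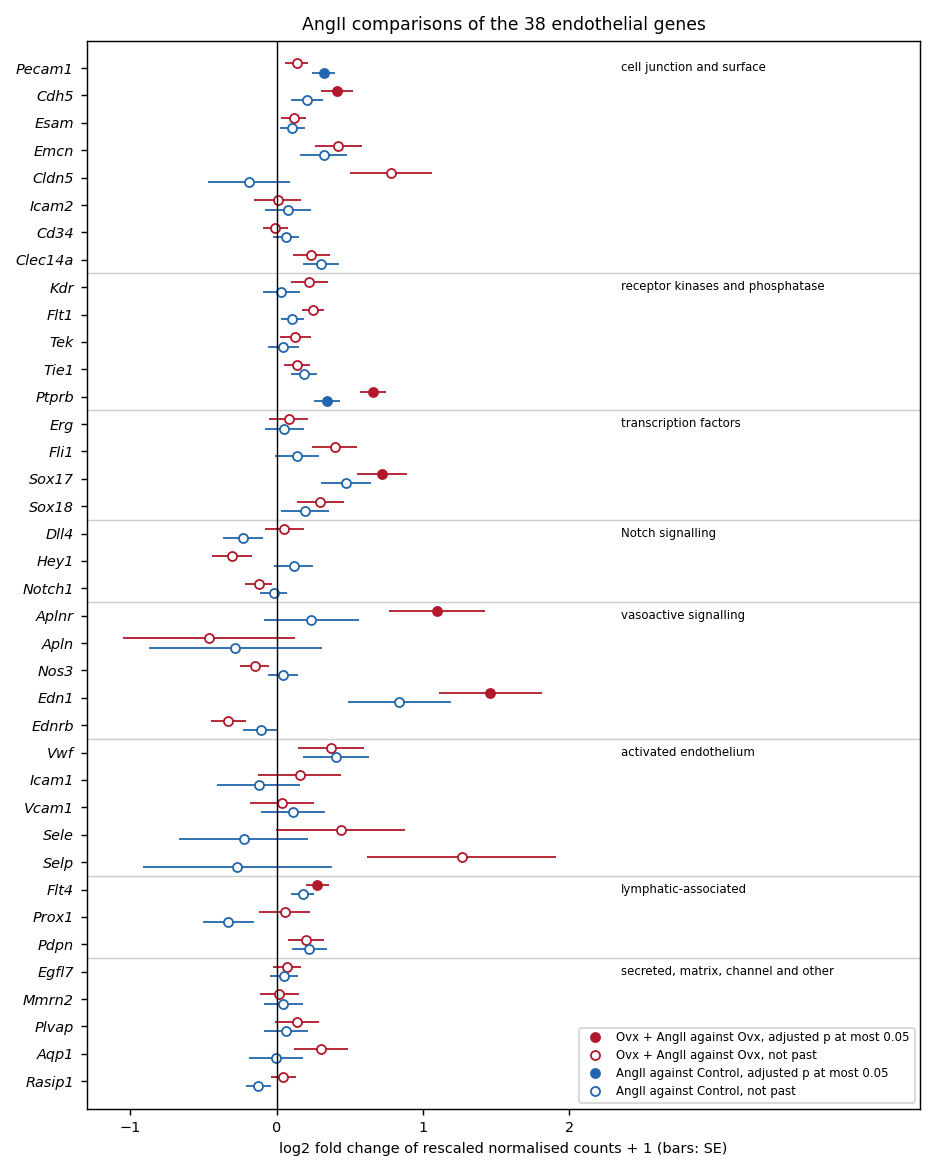
Log2 fold change of each of the 38 endothelial genes (points, with SE bars) in Ovx + AngII against Ovx (red) and AngII against Control (blue), ordered by role; filled points passed an adjusted p of 0.05. Most points lie to the right of 0, the filled ones are the 6 and 2 genes named in the text, and Edn1 reaches 1.46 in red and 0.84 in blue with wide bars.

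Promoters are shown for 4 members, a choice limited by which entries could be used. Ptprb, Sox17, Cdh5 and Pecam1 had no entry. The 4 shown are Edn1, with the widest AngII difference that passed, Emcn and Clec14a, which rose on average, and Selp, the member that most set Control replicate 4 apart. They come from RefSeq on build GRCm38.p6 and are given 5′ to 3′ on the strand of the gene, ending just before the annotated start or, for Emcn and Clec14a, shortened at that end where another annotated transcript already begins. Capitals mark the letters GGAAG or their complement CTTCC, the core that ETS factors such as Erg and Fli1 recognise. The windows are chr13:42301226-42301475 (plus strand) for Edn1, chr3:137340828-137341061 (plus) for Emcn, chr12:58269291-58269508 (minus) for Clec14a and chr1:164115014-164115263 (plus) for Selp.
Edn1: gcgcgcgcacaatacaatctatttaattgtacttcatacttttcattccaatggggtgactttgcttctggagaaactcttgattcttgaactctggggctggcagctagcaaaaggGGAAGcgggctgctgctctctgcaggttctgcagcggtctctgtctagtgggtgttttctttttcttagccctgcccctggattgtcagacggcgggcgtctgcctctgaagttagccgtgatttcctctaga
Emcn: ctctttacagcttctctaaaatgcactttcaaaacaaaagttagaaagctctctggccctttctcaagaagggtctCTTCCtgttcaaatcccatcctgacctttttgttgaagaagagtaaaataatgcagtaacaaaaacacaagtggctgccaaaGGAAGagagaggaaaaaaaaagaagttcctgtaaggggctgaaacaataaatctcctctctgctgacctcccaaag
Clec14a: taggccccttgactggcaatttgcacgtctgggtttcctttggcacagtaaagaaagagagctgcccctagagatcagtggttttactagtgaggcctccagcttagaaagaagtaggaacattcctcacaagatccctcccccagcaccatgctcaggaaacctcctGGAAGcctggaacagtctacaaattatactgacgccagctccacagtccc
Selp: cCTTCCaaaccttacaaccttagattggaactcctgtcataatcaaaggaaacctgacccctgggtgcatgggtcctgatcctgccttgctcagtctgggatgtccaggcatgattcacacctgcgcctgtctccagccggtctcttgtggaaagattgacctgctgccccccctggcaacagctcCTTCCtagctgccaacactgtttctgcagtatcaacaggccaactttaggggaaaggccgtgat
The core was present once in the windows of Edn1 and Clec14a, and at a pair of places in those of Emcn and Selp. Promoter entries were matched for 23 of the 38 members, and 18 of these (78.3%) held GGAAG or CTTCC on either strand in the 250 bases before the start, as did 63.6% of all 27025 promoters in the table. The letters ACAAT or ATTGT, the core of SOX sites, were in 6 of the 23 (26.1%) and in 28.3% of all promoters, and the Edn1 window held them at 4 places. Letters this short occur in most or many promoters, and a match does not show that a factor binds.

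Edn1 encodes endothelin-1, a peptide released by endothelial cells that constricts vessels. Its levels were 209, 262, 221 and 208 in Ovx + AngII, 64.9, 75.3, 88.6 and 99.1 in Ovx, 259, 337, 212 and 346 in AngII and 121, 141, 82.8 and 440 in Control. Every Ovx + AngII library was above every Ovx library, whereas the Control group held both low libraries and the highest value of all 16, that of replicate 4. The log2 fold change was 1.46 ± 0.35 (SE; 2.75-fold) in Ovx + AngII against Ovx (adjusted p = 0.016) and 0.84 ± 0.35 in AngII against Control (adjusted p = 0.209). Without Control replicate 4, the AngII against Control value was 1.33 ± 0.21 and passed (adjusted p = 0.00173). Averaged over both backgrounds it was 1.15 ± 0.25 (adjusted p = 0.00489).

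Of the other genes of vessel tone and apelin signalling, Aplnr rose in Ovx + AngII and the rest did not pass. Aplnr, the receptor for the peptide apelin, had levels of 337, 637, 562 and 616 in Ovx + AngII, 257, 213, 189 and 340 in Ovx, 430, 372, 351 and 171 in AngII and 281, 190, 499 and 187 in Control. Replicate 1 of Ovx + AngII lay within the Ovx range, and the AngII and Control groups overlapped widely. On the log2 scale the difference was 1.10 ± 0.33 in Ovx + AngII against Ovx (adjusted p = 0.0429) and 0.24 ± 0.33 in AngII against Control (adjusted p = 0.755). Leaving out 1 library at a time, the Ovx + AngII call passed in 8 of 16 fits, with an adjusted p of up to 0.122; the 8 libraries it needed were AngII replicates 2 and 3, Ovx replicates 1 to 3 and Ovx + AngII replicates 2 to 4. Apln, the gene of apelin itself, ranged over 161 to 300 in Ovx + AngII, 253 to 383 in Ovx, 70.6 to 615 in AngII and 149 to 1034 in Control, and its log2 fold changes of -0.46 ± 0.59 and -0.28 ± 0.59 were smaller than their errors. Without Control replicate 4 the AngII against Control value of Apln was above 0, at 0.34 ± 0.50 (adjusted p = 0.705).

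Nos3, the endothelial nitric oxide synthase, had levels of 1798, 1637, 2056 and 1683 in Ovx + AngII, 2127, 2217, 1784 and 1840 in Ovx, 2012, 1978, 1966 and 1616 in AngII and 1979, 1870, 1925 and 1578 in Control. The groups overlapped in both AngII comparisons. Differences on the log2 scale were -0.15 in Ovx + AngII against Ovx (95% confidence interval -0.36 to 0.06, adjusted p = 0.382) and 0.04 in AngII against Control (-0.17 to 0.25, adjusted p = 0.866). Ednrb, the endothelin receptor that in endothelium leads to nitric oxide release, ranged over 1183 to 1713 in Ovx + AngII and 1598 to 1952 in Ovx, a log2 fold change of -0.33 ± 0.12 that did not pass (adjusted p = 0.0956), and over 1289 to 1606 in AngII and 1268 to 1684 in Control (-0.11 ± 0.12, adjusted p = 0.675).

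**Figure D2:**
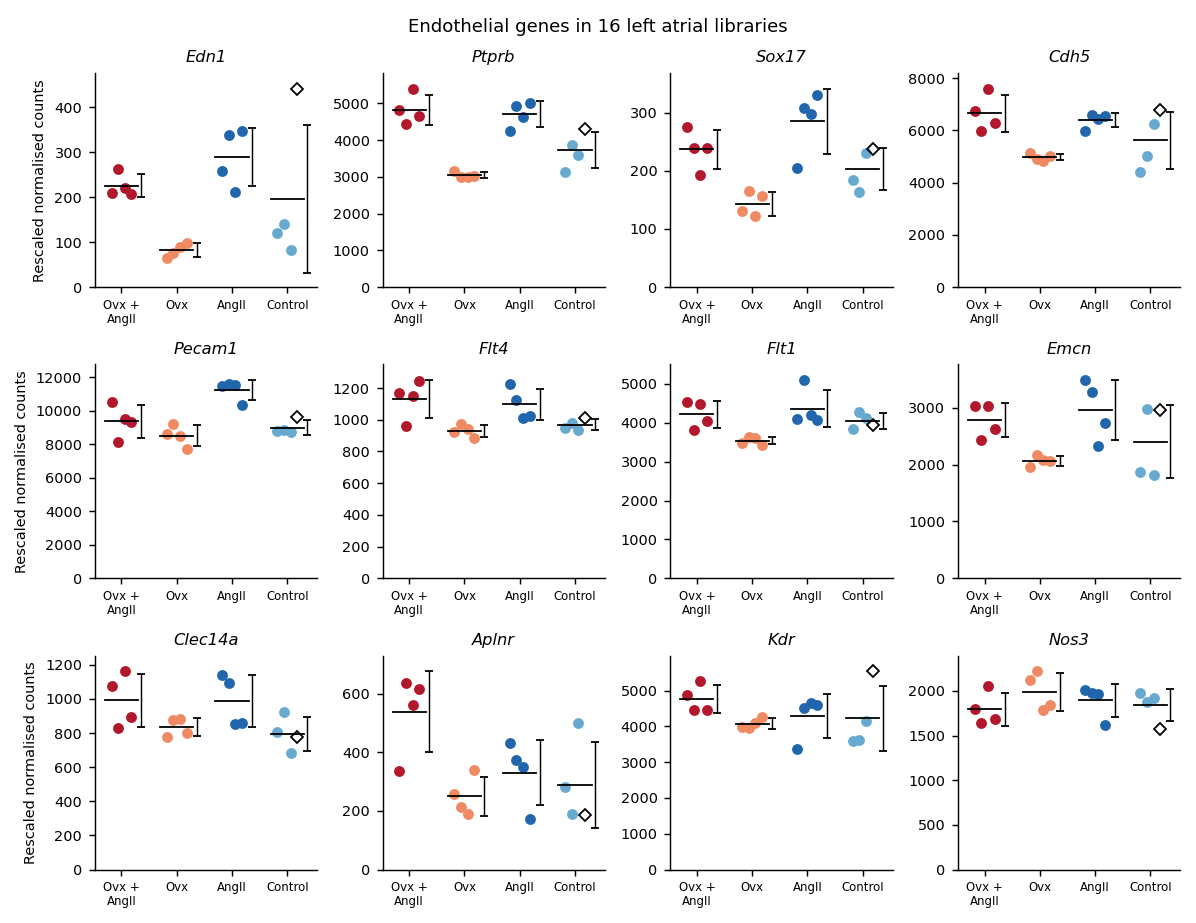
Levels (rescaled normalised counts, linear axes from 0) of 12 endothelial genes in the 4 libraries of each group, with the group mean (line) and SD (bar); the open diamond is Control replicate 4. For Edn1, Ptprb, Sox17 and Cdh5 the 4 Ovx + AngII libraries lie above the 4 Ovx libraries, and for Edn1 the diamond, at 440, is above all others.

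Among the receptor kinases and their phosphatase, Ptprb had the smallest adjusted p of the 38 genes in Ovx + AngII against Ovx. It encodes VE-PTP, the endothelial phosphatase that restrains the Tie2 receptor and steadies VE-cadherin junctions. Its levels were 4819, 4437, 5390 and 4656 in Ovx + AngII, 3171, 3006, 2984 and 3037 in Ovx, 4240, 4943, 4628 and 5007 in AngII and 3120, 3869, 3607 and 4308 in Control. The Ovx + AngII and Ovx groups were far apart, while AngII replicate 1 lay below Control replicate 4. Ptprb had a log2 fold change of 0.66 ± 0.09 in Ovx + AngII against Ovx (1.58-fold, adjusted p = 0.000481) and 0.34 ± 0.09 in AngII against Control (adjusted p = 0.0497). The Ovx + AngII call passed in all 25 other fits tried, whereas the AngII against Control call passed in 9 of 25 and was lost when any of 14 of the 16 libraries was left out, with adjusted p up to 0.248 over all 25.

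The VEGF receptors changed less. Flt1, the VEGF receptor that binds the ligand tightly and signals weakly, had levels of 4528, 3804, 4470 and 4043 in Ovx + AngII, 3489, 3641, 3607 and 3428 in Ovx, 4103, 5090, 4205 and 4060 in AngII and 3830, 4274, 4129 and 3930 in Control. The Ovx libraries were the lowest 4 of the 16. The averaged AngII difference was 0.18 ± 0.05 (adjusted p = 0.0338), and neither single comparison passed (0.25 ± 0.08, adjusted p = 0.0518, in Ovx + AngII against Ovx, and 0.11 ± 0.08, adjusted p = 0.498, in AngII against Control). Kdr, the main signalling VEGF receptor, had levels of 4887, 4448, 5264 and 4451 in Ovx + AngII, 3982, 3943, 4102 and 4274 in Ovx, 3372, 4517, 4657 and 4594 in AngII and 3593, 3625, 4155 and 5534 in Control. Ovx + AngII lay above Ovx without overlap, but the difference of 0.22 ± 0.13 did not pass (adjusted p = 0.295), and in AngII against Control it was 0.03 ± 0.13 (adjusted p = 0.926).

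Flt4, the VEGF-C receptor of lymphatic and some blood endothelium, had levels of 1166, 963, 1149 and 1243 in Ovx + AngII, 923, 973, 939 and 882 in Ovx, 1223, 1127, 1014 and 1025 in AngII and 948, 979, 934 and 1012 in Control. All 4 AngII libraries were above all 4 Control libraries, by as little as 1014 against 1012. Flt4 had a log2 fold change of 0.28 ± 0.08 in Ovx + AngII against Ovx (adjusted p = 0.038) and 0.18 ± 0.08 in AngII against Control (adjusted p = 0.248). The Ovx + AngII call did not pass without any 1 of the Ovx libraries or of Ovx + AngII replicates 1, 3 and 4 (adjusted p up to 0.114). The angiopoietin receptor genes Tek and Tie1 did not pass. Tek ranged over 2541 to 3643 in Ovx + AngII, 2636 to 2880 in Ovx, 2472 to 3084 in AngII and 2296 to 2947 in Control. Tie1 ranged over 2811 to 3664 in Ovx + AngII, 2841 to 3172 in Ovx, 2826 to 3616 in AngII and 2564 to 3134 in Control. Their averaged AngII differences were 0.09 ± 0.07 for Tek (adjusted p = 0.483) and 0.16 ± 0.06 for Tie1 (adjusted p = 0.0895).

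Of the genes for junction and surface proteins, Cdh5, Pecam1, Emcn and Clec14a rose with AngII on average, and Esam, Icam2, Cd34 and Cldn5 did not pass. Cdh5 encodes VE-cadherin, the adhesion molecule of endothelial junctions. It had levels of 6752, 5980, 7585 and 6286 in Ovx + AngII, 5139, 4926, 4839 and 5030 in Ovx, 5985, 6587, 6456 and 6536 in AngII and 4426, 5037, 6231 and 6770 in Control. Ovx + AngII and Ovx did not overlap, and the spread of the Control libraries covered the AngII range. Cdh5 had a log2 fold change of 0.41 ± 0.11 in Ovx + AngII against Ovx (adjusted p = 0.0248) and 0.21 ± 0.11 in AngII against Control (adjusted p = 0.33). The Ovx + AngII call did not pass without Ovx replicate 2, 3 or 4 or without Ovx + AngII replicate 1 or 3 (adjusted p up to 0.0923).

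Pecam1 encodes CD31, a surface molecule of endothelial cells and platelets. It had levels of 10510, 8109, 9504 and 9342 in Ovx + AngII, 8589, 9224, 8471 and 7712 in Ovx, 11450, 11570, 11550 and 10360 in AngII and 8794, 8846, 8720 and 9633 in Control. Here the separated pair was AngII and Control, while Ovx + AngII and Ovx overlapped. The log2 fold change was 0.32 ± 0.08 in AngII against Control (adjusted p = 0.0438) and 0.14 ± 0.08 in Ovx + AngII against Ovx (adjusted p = 0.313), and the difference between these responses, -0.18 ± 0.11, did not pass (adjusted p = 0.869). The AngII against Control call passed in 12 of 25 other fits, with adjusted p up to 0.185.

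Emcn, the gene of the surface sialomucin endomucin of capillaries and veins, had levels of 3038, 2435, 3034 and 2624 in Ovx + AngII, 1952, 2164, 2086 and 2072 in Ovx, 3483, 3285, 2328 and 2728 in AngII and 1862, 2981, 1825 and 2954 in Control. Control was split into a low and a high pair, and only the Ovx + AngII and Ovx groups were apart. Its averaged AngII difference was 0.37 ± 0.11 (adjusted p = 0.0317), with single values of 0.42 ± 0.16 in Ovx + AngII against Ovx (adjusted p = 0.107) and 0.32 ± 0.16 in AngII against Control (adjusted p = 0.298). Clec14a, a C-type lectin of angiogenic endothelium, had levels of 1077, 829, 1161 and 897 in Ovx + AngII, 777, 878, 880 and 803 in Ovx, 1139, 1095, 854 and 857 in AngII and 806, 923, 681 and 776 in Control. Neither pair of groups was free of overlap, and the averaged difference was 0.27 ± 0.09 (adjusted p = 0.0424). This was the least firm of the 9 averaged calls and passed in 12 of 24 other fits, against 15 for Emcn and 16 for Flt1. The averaged calls of Edn1, Sox17, Ptprb, Cdh5, Pecam1 and Flt4 passed in all 24.

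Claudin-5, the tight junction protein encoded by Cldn5, ranged over 269 to 514 in Ovx + AngII and 194 to 216 in Ovx, without overlap, and over 198 to 298 in AngII and 170 to 576 in Control, where the upper end was replicate 4. The log2 fold change of 0.78 ± 0.28 in Ovx + AngII against Ovx did not pass (adjusted p = 0.0898) with the spread shared by all groups, and without Control replicate 4 it did (0.78 ± 0.19, adjusted p = 0.0114). Esam, Icam2 and Cd34 encode adhesion and surface molecules, some of them shared with blood cells or stroma. Esam ranged over 1318 to 1729 in Ovx + AngII, 1300 to 1523 in Ovx, 1530 to 1600 in AngII and 1317 to 1621 in Control. Icam2 ranged over 499 to 603 in Ovx + AngII, 458 to 638 in Ovx, 572 to 808 in AngII and 530 to 965 in Control. Cd34 ranged over 5342 to 5960 in Ovx + AngII, 5472 to 5946 in Ovx, 4872 to 6507 in AngII and 4906 to 6050 in Control. The ranges overlapped for all 3 genes, which had averaged AngII differences of 0.11 ± 0.06, 0.04 ± 0.11 and 0.03 ± 0.06, with adjusted p of 0.226, 0.846 and 0.812.

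Of the 4 transcription factors, Sox17 alone passed. It marks arterial endothelium and endocardium in development. Its levels were 275, 239, 193 and 239 in Ovx + AngII, 130, 165, 122 and 156 in Ovx, 204, 308, 297 and 330 in AngII and 184, 163, 230 and 238 in Control. All Ovx + AngII libraries were above all Ovx libraries, and in the intact groups AngII replicate 1 fell among the controls. Sox17 had a log2 fold change of 0.72 ± 0.17 in Ovx + AngII against Ovx (adjusted p = 0.0142) and 0.47 ± 0.17 in AngII against Control (adjusted p = 0.14). Without Ovx replicate 3 the Ovx + AngII call had an adjusted p of 0.0504, and it passed in the other 24 fits tried. Fli1, an ETS factor also used by blood cells, ranged over 408 to 621 in Ovx + AngII and 364 to 391 in Ovx, a difference of 0.40 ± 0.15 (adjusted p = 0.11) that passed without Control replicate 4 (adjusted p = 0.0233). Sox18, which directs vessel and lymphatic formation, ranged over 798 to 984 in Ovx + AngII, 558 to 871 in Ovx, 742 to 1000 in AngII and 658 to 1077 in Control. Erg, an ETS factor that maintains endothelial identity, ranged over 670 to 1096 in Ovx + AngII, 742 to 926 in Ovx, 746 to 941 in AngII and 774 to 897 in Control. Sox18 and Erg overlapped in both comparisons and had averaged AngII differences of 0.25 ± 0.12 (adjusted p = 0.159) and 0.07 ± 0.09 (adjusted p = 0.686).

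The 3 Notch genes were below 0 in the averaged AngII comparison, without passing. Dll4, the Notch ligand of arterial and sprouting endothelium, Hey1, a Notch target, and Notch1, the receptor, had averaged AngII differences of -0.09 ± 0.10, -0.10 ± 0.10 and -0.07 ± 0.07. In the single comparisons Dll4 was at 0.05 ± 0.14 in Ovx + AngII against Ovx and Hey1 at 0.12 ± 0.14 in AngII against Control, and the other 4 values of these genes were below 0. Dll4 ranged over 539 to 601 in Ovx + AngII, 449 to 696 in Ovx, 462 to 575 in AngII and 523 to 720 in Control. Notch1 ranged over 2282 to 3063 in Ovx + AngII, 2910 to 3096 in Ovx, 2434 to 3227 in AngII and 2576 to 2914 in Control. Hey1 ranged over 313 to 483 in Ovx + AngII, 440 to 502 in Ovx, 330 to 528 in AngII and 370 to 393 in Control, the narrowest group of the 4. The difference between the AngII responses on the 2 backgrounds had an unadjusted p under 0.05 for 3 members, Hey1, Cldn5 and Ptprb, where 5.8% of all genes did. It was -0.42 ± 0.19 for Hey1 and did not pass (adjusted p = 0.831).

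The members of vessel activation, Vwf, Icam1, Vcam1, Sele and Selp, gave no AngII call with all 16 libraries. Selp, the P-selectin that tethers leukocytes and platelets, ranged over 55.6 to 102 in Ovx + AngII and 24.8 to 42.3 in Ovx without overlap, yet its log2 fold change of 1.27 ± 0.65 did not pass (adjusted p = 0.241). In AngII it ranged over 32.6 to 143 and in Control over 38.9 to 560. Control replicate 4 held that 560, against a mean of 47 in the other 3 controls. Without it, Selp passed in Ovx + AngII against Ovx (1.26 ± 0.35, adjusted p = 0.0263) but not in AngII against Control (0.62 ± 0.38, adjusted p = 0.317).

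Vwf, the gene of von Willebrand factor, ranged over 9626 to 11730 in Ovx + AngII, 7223 to 9946 in Ovx, 12400 to 19220 in AngII and 7871 to 21870 in Control. The upper end in Control was again replicate 4, and the other 3 controls averaged 9564. Its log2 fold change in AngII against Control was 0.41 ± 0.23 with that library (adjusted p = 0.362) and 0.71 ± 0.14 without it (adjusted p = 0.00706). Icam1 and Vcam1 encode the adhesion molecules that leukocyte integrins bind. Icam1 ranged over 1171 to 2028 in Ovx + AngII, 1167 to 1390 in Ovx, 1127 to 1967 in AngII and 1183 to 3579 in Control. Vcam1 ranged over 1751 to 2792 in Ovx + AngII, 2029 to 2850 in Ovx, 2615 to 4061 in AngII and 2468 to 5033 in Control. Both had their highest level in Control replicate 4, and they had averaged AngII differences of 0.02 ± 0.20 and 0.07 ± 0.16, and E-selectin (Sele), at 15.7 to 88 over all libraries, 0.11 ± 0.31. Without that library the averaged differences were 0.20 ± 0.13 for Icam1, 0.20 ± 0.12 for Vcam1 and 0.31 ± 0.28 for Sele, and none passed (adjusted p = 0.263, 0.261 and 0.461).

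**Figure D3:**
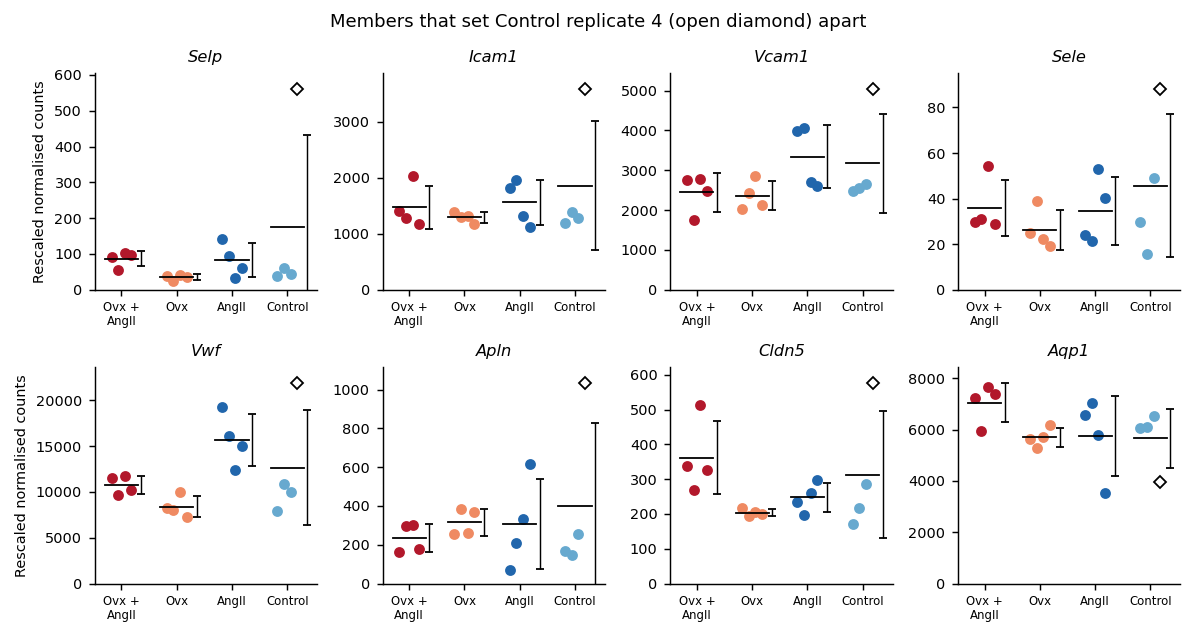
Levels (rescaled normalised counts, linear axes from 0) of 8 endothelial genes in each library by group, with means (lines) and SD (bars, not drawn below 0); the open diamond is Control replicate 4. The diamond is above all other libraries in 7 panels, most of all for Selp at 560, and for Aqp1 it lies below the other 3 controls.

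Control replicate 4 had the highest level of all 16 libraries for 13 of the 38 members, followed by Ovx + AngII replicate 3 with 9. The same count was not made over all tested genes, so it is not read as particular to the members. Relative to the mean of the other 3 controls, levels in Control replicate 4 were 11.9 times as high for Selp, 5.4 for Apln, 3.83 for Edn1, 2.79 for Sele and for Icam1, 2.56 for Cldn5, 2.29 for Vwf and 1.97 for Vcam1. Other members were close to the other controls, among them Pecam1 with a ratio of 1.1 and others with ratios of 1.06 for Flt4, 0.998 for Notch1, 0.964 for Flt1 and 0.936 for Erg. Aqp1, the water channel of capillary endothelium and red cells, was lower at 0.636, as was Aplnr at 0.577, and Nos3 and Plvap were lowest of all 16 libraries in this one. The leukocyte, macrophage and haemoglobin values given above moved in the same library, and their part in these levels was not tested.

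Leaving that library out raised the number of members past the test to 10 in Ovx + AngII against Ovx (adding Cldn5, Fli1, Flt1 and Selp) and to 4 in AngII against Control (adding Edn1 and Vwf). It raised the averaged count to 14 (adding Cldn5, Fli1, Selp, Sox18 and Vwf). The shares of all genes that passed upward also rose without it, to 8.03% in Ovx + AngII against Ovx, 5.44% in AngII against Control and 13.6% on average. No member fell in any of these, and the median log2 fold changes were 0.15, 0.17 and 0.18. The Ovx comparisons and the difference between AngII responses again had 0 members past the test. All 6 genes of the full Ovx + AngII call, both of the AngII against Control call and all 9 of the averaged call were again among those that passed.

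Of the lymphatic-associated genes besides Flt4, Prox1, the regulator of lymphatic fate that is also expressed in heart muscle, had levels of 1682 to 1990 in Ovx + AngII, 1517 to 2241 in Ovx, 1157 to 1490 in AngII and 1218 to 2452 in Control, with an averaged AngII difference of -0.14 ± 0.12. Pdpn, the gene of podoplanin in lymphatic endothelium and fibroblasts, ranged over 654 to 753 in Ovx + AngII, 568 to 660 in Ovx, 610 to 802 in AngII and 487 to 770 in Control, and had an averaged difference of 0.21 ± 0.09 (adjusted p = 0.101).

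The remaining 5 members, of varied roles, overlapped between groups in both AngII comparisons and none passed. Egfl7, a secreted factor of growing vessels, ranged over 1500 to 1957 in Ovx + AngII, 1443 to 1751 in Ovx, 1438 to 1852 in AngII and 1450 to 1764 in Control (averaged AngII difference 0.06 ± 0.07). Mmrn2, an endothelial matrix protein that binds Clec14a, ranged over 3626 to 4817 in Ovx + AngII, 3679 to 4303 in Ovx, 3330 to 5571 in AngII and 3581 to 4484 in Control (0.03 ± 0.10). Plvap, the diaphragm protein of fenestrae and caveolae, ranged over 5019 to 7623 in Ovx + AngII, 5082 to 6225 in Ovx, 4926 to 7297 in AngII and 4642 to 7023 in Control (0.10 ± 0.11). For these genes AngII replicate 1 was the highest library of its group. Aqp1 ranged over 5933 to 7647 in Ovx + AngII, 5261 to 6170 in Ovx, 3527 to 7045 in AngII and 3958 to 6546 in Control (0.15 ± 0.13), with its lowest levels in AngII replicate 4 and Control replicate 4. Rasip1, a Ras-interacting protein needed for vessel lumens, ranged over 1062 to 1342 in Ovx + AngII, 982 to 1210 in Ovx, 984 to 1152 in AngII and 1056 to 1212 in Control (-0.04 ± 0.06).

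**Figure D4:**
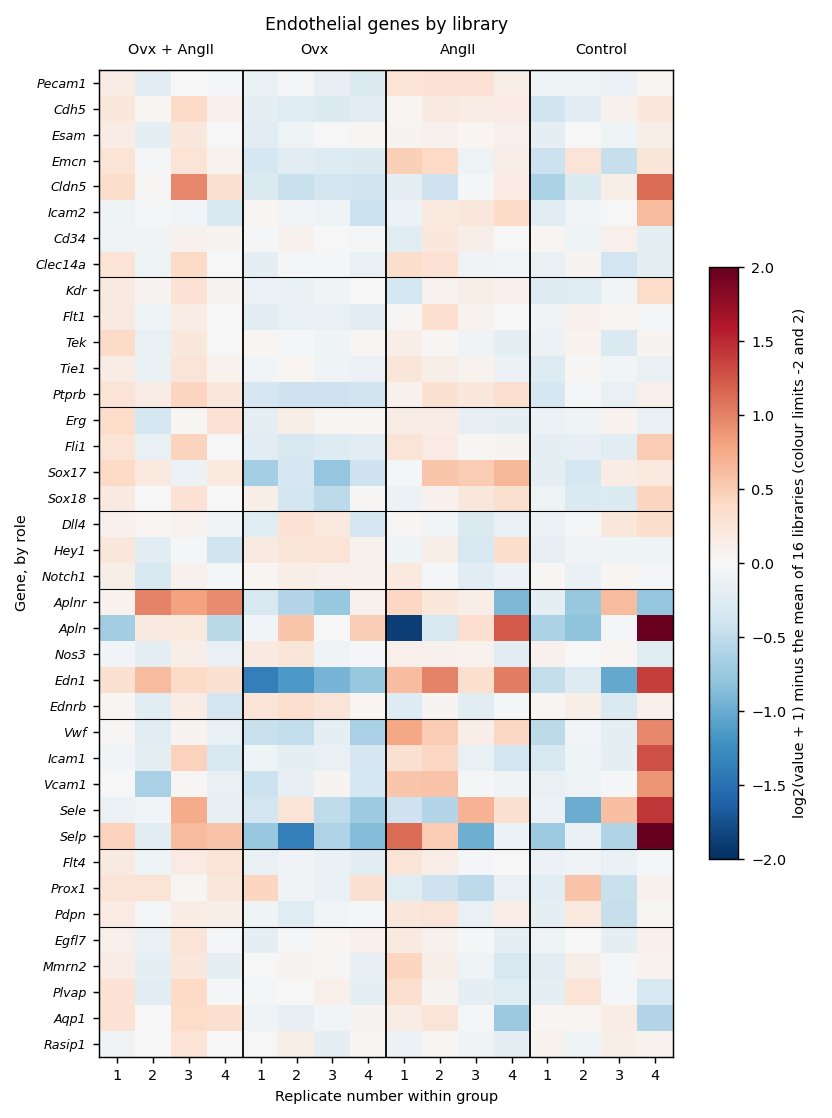
Each cell is log2(level + 1) of a gene in a library minus the mean over the 16 libraries (red above, blue below, colours ending at -2 and 2); rows are the 38 genes by role and columns are the 4 libraries of each group. The Ovx block is blue for Edn1, Selp, Sox17 and Ptprb, and Control replicate 4 is the reddest column for the activation genes.

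Ovariectomy changed none of the 38 genes by the test. In Ovx against Control 0 members passed, as did 0 of all genes, and 6 members had an unadjusted p under 0.05, where 8.66% of all genes did. In Ovx + AngII against AngII the counts were again 0 and 0, with 4 members under an unadjusted 0.05 where 6.16% of all genes were, and averaged over both AngII states 0 and 0, with 8 members where 9.28% of all genes were. The lowest adjusted p of a member was 0.563 in Ovx against Control, 0.669 in Ovx + AngII against AngII and 0.428 on average. The median log2 fold change of the members was -0.06, 0.01 and 0.00 in these comparisons.

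Individual members show what lay behind these values. In Ovx against Control, Hey1 was wholly above (440 to 502 in Ovx, 370 to 393 in Control) and Flt1 (3428 to 3641 in Ovx, 3830 to 4274 in Control) and Fli1 (364 to 391 in Ovx, 392 to 649 in Control) wholly below, where 2.22% of all genes were wholly above and 2.24% wholly below. In Ovx + AngII against AngII, Prox1 was wholly above (1682 to 1990 in Ovx + AngII, 1157 to 1490 in AngII) and Vwf wholly below (9626 to 11730 in Ovx + AngII, 12400 to 19220 in AngII), where 2.15% and 2.38% of all genes were. The log2 fold change was 0.52 ± 0.17 for Prox1 (adjusted p = 0.698) and -0.53 ± 0.23 for Vwf (adjusted p = 0.78). In Ovx against Control, Edn1 had -0.96 ± 0.35, Sox17 -0.50 ± 0.17 and Ptprb -0.28 ± 0.09, each with an adjusted p of 0.563. Without Control replicate 4 these were -0.47 ± 0.21, -0.42 ± 0.18 and -0.21 ± 0.08, each with an adjusted p of 0.861.

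The Ovx comparisons read differently on the 2 scales of the values. On the values as deposited, 36 of 38 members were below 0 in Ovx against Control, against 23 after rescaling, and the member median was -0.22 where that of all genes was -0.17. In Ovx + AngII against AngII 33 were below 0 as deposited and 17 after rescaling. As deposited, 3 members passed in Ovx against Control (Flt1, Ptprb and Sox17), 1 in Ovx + AngII against AngII (Pecam1) and 11 on average, all lower on the Ovx side. Of all genes, 9.65%, 0.757% and 28.3% passed downward as deposited in these 3 comparisons, against 7.89%, 2.63% and 28.9% of the members. None of these passed after rescaling, and the AngII comparisons, which stay within a side, gave 6, 2 and 9 members on either scale.

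**Figure D5:**
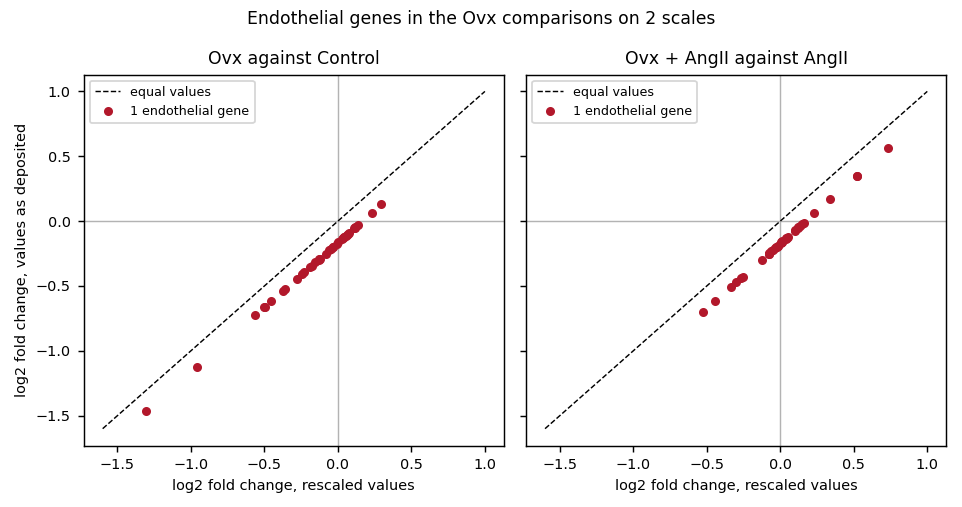
Log2 fold change of each of the 38 endothelial genes (points) after rescaling (x axis) and on the values as deposited (y axis), for Ovx against Control (left) and Ovx + AngII against AngII (right); the dashed line marks equal values. The points lie below the line by the scale shift of about 0.17, so that 36 and 33 genes are below 0 as deposited against 23 and 17 after rescaling.

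The difference between the AngII responses on the Ovx and the intact background passed for 0 of 38 members and 0 of all genes, with 3 members under an unadjusted p of 0.05 where 5.8% of all genes were. With all 16 libraries, values included 1.54 ± 0.91 for Selp (adjusted p = 0.859), 0.98 ± 0.40 for Cldn5 (adjusted p = 0.831) and 0.86 ± 0.46 for Aplnr (adjusted p = 0.841). For Ptprb the difference was 0.32 ± 0.13 (adjusted p = 0.831) and for Edn1 0.62 ± 0.50 (adjusted p = 0.892). Without Control replicate 4 the differences were 0.64 ± 0.52 for Selp, 0.63 ± 0.28 for Cldn5, 1.03 ± 0.46 for Aplnr, 0.24 ± 0.12 for Ptprb and 0.13 ± 0.28 for Edn1, again with 0 members past the test. The higher count of calls in Ovx + AngII against Ovx than in AngII against Control therefore does not show a difference between backgrounds.

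A further 48 endothelial pathway genes, listed by function, were read in the same fit. On average over both backgrounds AngII raised 11 of them and lowered 3, where 9.16% of all genes passed upward and 8.5% downward, with a median of 0.16 against -0.01 for all tested genes. In Ovx + AngII against Ovx 5 rose and 3 fell, where 5.96% and 4.28% of all genes did. In AngII against Control 0 passed, with 13 of 48 under an unadjusted p of 0.05 where 18.7% of all genes were. Without Control replicate 4, 17 rose and 4 fell on average, where 1937 and 1740 of 14216 genes did. In that fit 11 rose and 3 fell in Ovx + AngII against Ovx, where 1141 and 882 of all genes did. There 7 rose and 2 fell in AngII against Control, where 773 and 711 of all genes did. Among those raised on average were Nrp1, the VEGF co-receptor (0.52 ± 0.09, adjusted p = 0.00121), with levels of 6768 to 8396 in Ovx + AngII, 4808 to 5383 in Ovx, 7083 to 9816 in AngII and 4880 to 7305 in Control, and Gja4, the connexin of arterial endothelium (0.94 ± 0.18, adjusted p = 0.00222). Tfpi, the inhibitor of tissue factor made by endothelium, fell by 0.32 on the log2 scale (adjusted p = 0.00236), and Angpt1, the Tie2 ligand made by cells around vessels, fell by 0.61 (adjusted p = 0.0124).

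Markers of vessel types gave a mixed picture. In the averaged AngII comparison used for them, 9.16% of all genes passed upward and 8.5% downward. Of 5 tested arterial markers 4 rose on average (Gja4, Sema3g, Fbln5 and Efnb2; median 0.52), Gja4 and Efnb2 being pathway genes as well, and their summed level, Gkn3 included, was 3102 to 4331 in Ovx + AngII, 2479 to 2832 in Ovx, 3377 to 5245 in AngII and 2625 to 2835 in Control. Of 4 lymphatic markers 2 rose on average, Reln (0.94 ± 0.15, adjusted p = 0.000605) and Mmrn1 (0.80 ± 0.14, adjusted p = 0.00117). The other 2 did not pass, and 1 of them was below 0, at -0.62. Of 8 capillary markers 1 rose (Tcf15), and of 4 venous markers 1 fell (Nr2f2, -0.31 ± 0.08). The venous markers were split, with 2 above 0 (up to 0.40) and 2 below. Of 5 tested endocardial markers 0 passed, with 0 under an unadjusted p of 0.05, where 4457 of all 14251 genes were.

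Markers of other cell types moved in the same comparisons. The shares of all genes on average were again 9.16% upward and 8.5% downward. Of 9 smooth muscle and pericyte markers 6 rose on average and 0 fell, and their sum was 64130 to 84490 in Ovx + AngII, 31210 to 35350 in Ovx, 45610 to 80260 in AngII and 34290 to 44150 in Control. Of 6 myofibroblast markers 5 rose, and their sum was 5823 to 9744 in Ovx + AngII, 3466 to 4025 in Ovx, 4933 to 9490 in AngII and 3400 to 8298 in Control. Of 10 fibroblast markers 4 rose, with sums of 124500 to 161600 in Ovx + AngII, 128100 to 147200 in Ovx, 119300 to 150600 in AngII and 92440 to 142300 in Control, and of 10 cardiomyocyte markers 2 rose and 1 fell. Of 7 macrophage markers 0 passed, with 0 under an unadjusted p of 0.05, where 4457 of all 14251 genes were. Without Control replicate 4, 1 of the 7 rose on average, where 13.6% of all genes did. In that fit 6 were under an unadjusted p of 0.05, where 5319 of 14216 genes were. Among the Control libraries, replicate 4 had the highest myofibroblast sum (8298) and the lowest smooth muscle and pericyte (34290) and fibroblast (92440) sums. No marker of these lists was at 0 in every library, and their part in the endothelial values was not tested.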

How the data were processed

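Whole LA was sequenced with a stranded mRNA kit in 16 libraries, 4 per group. Per the labels and the study's methods, the authors aligned reads with STAR to mouse build mm10, used Salmon (versions not given in the sources used here) and normalised with DESeq2. What they deposited is a signal per gene, counts divided by size factors and so not whole. One read was worth 0.779 to 1.16 of that signal, and 74.1% to 90.4% of values worth up to 10 reads came within 0.1 of a whole number, so reads were not recovered and no count test was run. The implied depth was 15958824 to 25161236 reads per library. No 2 libraries were identical, 0 table columns were left unused, 5997 genes were 0 throughout, and 14 symbols (0.0721% of values) had become dates.

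Values were rescaled by median-of-ratios factors and taken as log2(value + 1), which understates changes of low genes. Limma 3.58.1 (R 4.3.3) fitted 4 group means to all 16 libraries with moderated variances and a mean trend. The p-values are two-sided, adjusted by Benjamini-Hochberg within each of 7 comparisons over 14251 genes. The study also required a 1-unit log2 change, and that count is given beside the main one. Levels in every library are given for members past the test and for Pecam1, Cdh5, Kdr and Nos3, and other members by ranges. Other pathway genes were named by smallest adjusted p. Members, lists and rules were chosen with earlier results of these data known. Of lists not described with the results, 2 of 7 epicardial and mesothelial markers rose with AngII on average, where 9.16% of all genes did. In the same comparison 0 of the tested platelet, erythroid, adipocyte and lymphocyte and neutrophil genes passed. Without Control replicate 4, 3 erythroid genes and 1 platelet gene rose, where 13.6% of all genes did. Alternatives were other scalings, pseudocounts of 0.5 and 5, no filter and a minimum mean of 50, fits of only the groups compared, array weights and leaving libraries out. Promoters were matched by symbol in RefSeq tables of GRCm38.p6 (Python 3.11.15, pandas 2.3.3, matplotlib 3.10.9).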

Additional observations from a re-analysis of the deposited data

Results flagged for a closer look

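In 14 of 152 combinations of a member and a group, the highest or lowest of the 4 libraries lay far from the other 3 relative to the range of the group (Dixon's 95% limit). Chance alone would give some such combinations, about 5% of those looked at. No rate over all tested genes is given here, so the flags are not read as particular to the members. Control replicate 4 accounted for 6 of the 14, and was high in 5 of them. These were Selp at 560 (other controls 38.9 to 59.5), Icam1 at 3579 (1183 to 1385), Vcam1 at 5033 (2468 to 2666), Fli1 at 649 (392 to 407) and Pecam1 at 9633 (8720 to 8846), and the low one was Aqp1 at 3958 (6054 to 6546).

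In the AngII group, replicate 4 was low for Pecam1 at 10360 (others 11450 to 11570) and for Nos3 at 1616 (1966 to 2012), replicate 1 was low for Kdr at 3372 (4517 to 4657), and replicate 2 was high for Flt1 at 5090 (4060 to 4205). In the Ovx + AngII group, replicate 3 was high for Sele at 54.4 (28.7 to 30.9) and for Rasip1 at 1342 (1062 to 1105), and low for Prox1 at 1682 (1935 to 1990). In the Control group, replicate 1 was low for Hey1 at 370 (389 to 393). No Ovx library was set apart in this way. No member rose without overlap with AngII on 1 background and fell without overlap on the other.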

How the results depend on the processing

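No paired analysis was possible because the labels give no replicate numbers shared between groups. Leaving out each library in turn, the members past the test numbered 2 to 10 in Ovx + AngII against Ovx (6 with all libraries), 0 to 4 in AngII against Control (2 with all) and 6 to 14 averaged over backgrounds (9 with all). The highest of each range was without Control replicate 4, the Ovx + AngII against Ovx count was 2 without Ovx replicate 3 and 3 without Ovx replicate 2 or Ovx + AngII replicate 3, and the AngII against Control count was 0 or 1 without any library other than Control replicate 4. With Control replicate 4 and AngII replicate 4 both left out, the counts were 11, 4 and 16. With array weights they were 12, 4 and 15. With only the groups compared they were 14 in Ovx + AngII against Ovx and 0 in AngII against Control, where no filter on low values also gave 0. With the fold limit added they were 2, 0 and 1. On values as deposited the Ovx comparisons gave 3, 1 and 11 members against 0. Over all genes, the count for AngII against Control was 399 and ranged from 2 to 1762 over all alternatives, for Ovx + AngII against Ovx it was 1459 (734 to 2872), for the averaged comparison 2517 (1929 to 3800), and for the Ovx comparisons 0, with 1380, 108 and 4049 as deposited. The counts over all genes thus moved between alternatives too, and the member counts are not read as particular to the members. No member that passed reversed its direction in any alternative. With all libraries, the SE in the single comparisons was 0.65 for Selp and 0.59 for Apln, against 0.08 for Pecam1.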
